A study of Rattus norvegicus with 4 samples.

Results

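The enzyme genes Acsm3, Echdc2, Acox2 and Cyp8b1, of acyl-CoA and bile acid metabolism, were followed across the kidney arrays of 2 rat strains. They were taken as all probe sets whose platform gene symbol is one of these 4 names, which gave 4 probe sets, 1 for each gene, of 15866 probe sets and 10411 named genes in all. The genes were selected on their high array signal in the spontaneously hypertensive rat, so their strain difference is described here without a test. There are 4 Affymetrix RAE-230A arrays: SHR saline, SHR nicotine, BN saline and BN nicotine. BN is the Brown Norway rat, whose blood pressure is normal, and SHR the spontaneously hypertensive rat, an inbred strain that develops high blood pressure. All animals were males aged 9 weeks, and each had been exposed before birth either to nicotine or to saline, the control. An array carried kidney RNA pooled in equal amounts from 13 animals in the SHR nicotine group and from 12 in each of the other groups, so no group has a replicate and the spread between animals is not seen. The series asks how nicotine before birth affects the kidney.

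All 4 genes encode enzymes that act on acids activated as coenzyme A esters or on the sterols from which bile acids are made. Acyl-CoA synthetases such as Acsm3 join a carboxylic acid to coenzyme A. Hydratases of the enoyl-CoA family, to which the mitochondrial protein Echdc2 belongs, add water to the unsaturated intermediates of beta-oxidation. Acox2 is the peroxisomal oxidase that starts the shortening of the branched side chain of bile acid precursors, and Cyp8b1 is the sterol hydroxylase that directs synthesis toward cholic acid, a step best known in the liver. Acsm3 was formerly called SA and became known as a gene with more RNA in the kidney of SHR.

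The bases just before each gene's start are shown first, because the 4 genes were all brighter in SHR and lie on different chromosomes. Each line gives the 250 bases upstream of the start in the RefSeq promoter table, build GRCr8, read in the direction of transcription; that assembly is of a BN rat, the strain of low signal, and the SHR sequence was not analysed here. Capitals mark matches on either strand to 5 short motifs: the TATA box TATAAA, the CCAAT box, the GC box GGGCGG, the nuclear receptor motif AGGTCA and the HNF1 motif GTTAAT. No marked matches overlap. The Echdc2 window, and the last part of the Acox2 window, lie within the annotated span of the gene, because the table takes the start of 1 transcript and another starts further upstream.
Acsm3, chr1:183564402-183564651, plus strand: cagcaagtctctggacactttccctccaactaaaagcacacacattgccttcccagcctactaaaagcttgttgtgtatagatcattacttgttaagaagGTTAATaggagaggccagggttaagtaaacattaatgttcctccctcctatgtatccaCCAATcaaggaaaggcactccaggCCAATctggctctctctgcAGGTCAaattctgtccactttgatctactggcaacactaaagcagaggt
Echdc2, chr5:128144636-128144885, plus strand: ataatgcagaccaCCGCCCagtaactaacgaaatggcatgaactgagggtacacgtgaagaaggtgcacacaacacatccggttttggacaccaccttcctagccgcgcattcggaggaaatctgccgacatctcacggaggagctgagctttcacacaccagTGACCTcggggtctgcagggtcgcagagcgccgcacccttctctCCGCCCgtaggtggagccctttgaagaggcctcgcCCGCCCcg
Acox2, chr15:19090705-19090954, plus strand: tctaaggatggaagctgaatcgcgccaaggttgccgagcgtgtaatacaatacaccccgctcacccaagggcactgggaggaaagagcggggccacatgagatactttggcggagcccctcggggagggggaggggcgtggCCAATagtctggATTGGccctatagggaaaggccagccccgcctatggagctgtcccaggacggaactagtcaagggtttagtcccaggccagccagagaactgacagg
Cyp8b1, chr8:130457593-130457842, minus strand: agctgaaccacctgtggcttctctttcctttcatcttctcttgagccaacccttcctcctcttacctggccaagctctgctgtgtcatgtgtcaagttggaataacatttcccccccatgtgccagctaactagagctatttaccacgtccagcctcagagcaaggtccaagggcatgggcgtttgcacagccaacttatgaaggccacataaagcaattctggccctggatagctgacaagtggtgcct

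No motif was found in all 4 windows. The CCAAT box was found 2 times upstream of Acsm3 and 2 times upstream of Acox2, and 34.0% of 33469 upstream windows of the same length hold it. The nuclear receptor motif was found once each upstream of Acsm3 and Echdc2, against 14.1% of all windows. The HNF1 motif was found upstream of Acsm3 alone (6.45% of all windows) and the GC box 3 times upstream of Echdc2 alone (30.5%). The TATA box was in none of the 4 (12.9% of all windows), and the Cyp8b1 window held none of the 5 motifs. The windows also differed in base composition, with 44.4% G and C for Acsm3, 51.2% for Cyp8b1, 59.2% for Echdc2 and 60% for Acox2. A match is a string of letters in the BN sequence, not a bound site.

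The signals are MAS5 intensities on a linear, arbitrary scale, so levels of different genes are not set against each other. Before ratios were taken, every signal under 44.5 was set to that value, a floor placed at the 40th percentile of the probe set signals, since ratios of values near background are unstable. Signals of 89.0 or more, 2 times the floor, count as measured. All 4 genes reached that limit on both SHR arrays and on neither BN array, so any statement about their level in BN is weak. Where BN lay below the floor, only a minimum of the fold can be given, marked by the words "at least".

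Acsm3 (probe set 1383303_at) read 873.1 in SHR saline and 1059.8 in SHR nicotine, against 77.1 in BN saline and 85.4 in BN nicotine. It was high in both SHR pools and near the limit of measurement in both BN pools, and the groups did not overlap. The fold was 11.3 under saline and 12.4 under nicotine, 11.9 on average. Echdc2 (1374527_at) read 501.7 in SHR saline and 522.4 in SHR nicotine, against 2.31 and 1.77 in the BN saline and nicotine pools. Both BN values lie far below the floor, so they show only that no signal was found there. The fold was at least 11.3 under saline and at least 11.7 under nicotine. The SHR pools were close to each other, and the size of the strain difference is set by the floor and not by the BN signals.

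Acox2 (1371137_at) read 281.2 in SHR saline and 268.2 in SHR nicotine, against 59.3 and 45.5 in the BN saline and nicotine pools. The BN nicotine pool lay just above the floor. The fold of SHR over BN was 4.74 under saline and 5.90 under nicotine, 5.29 on average, and it depends on BN signals below the limit of measurement: the average log2 ratio of 2.40 became 1.51 with the floor at the 60th percentile. Cyp8b1 (1368435_at) read 256.4 in SHR saline and 179.7 in SHR nicotine, against 27.3 and 40.6 in the BN saline and nicotine pools. Both SHR pools stood above both BN pools, and the SHR saline pool was the highest of the 4. The fold was at least 5.76 under saline and at least 4.04 under nicotine, at least 4.82 on average.

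**Figure D1:**
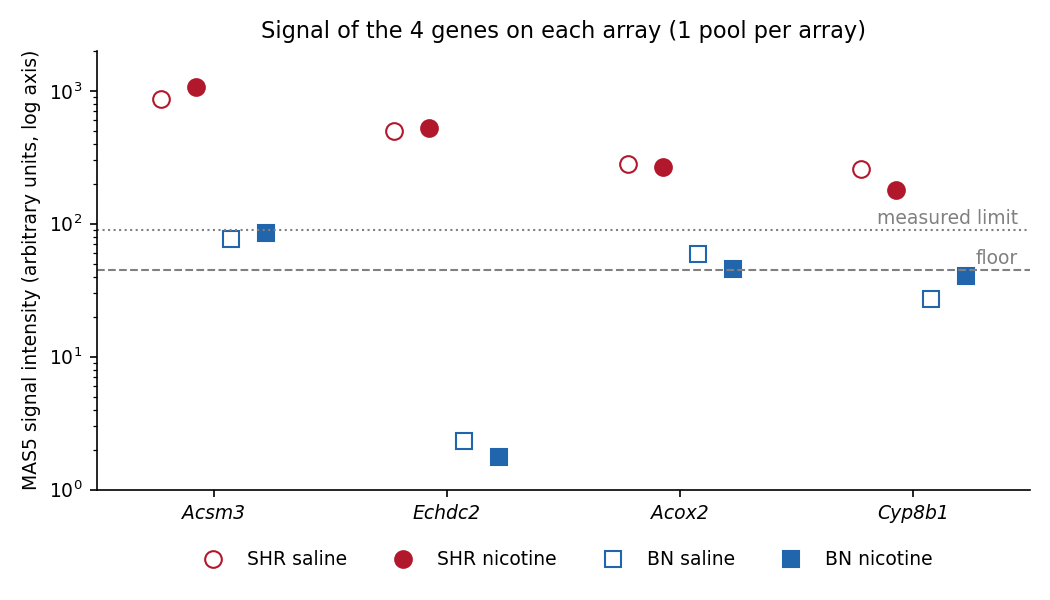
Signal of Acsm3, Echdc2, Acox2 and Cyp8b1 (log axis, arbitrary units) on the 4 arrays, 1 point for each pool, with the floor of 44.5 and the limit of 89.0 as lines. Every SHR point lies above the limit and every BN point below it; Echdc2 is at 1.77 and 2.31 in BN.

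The SHR arrays were above the BN arrays for all 4 genes, a pattern that 30.0% of 5697 genes measured on any array show. All 4 were also at least 2-fold higher in SHR under both treatments, as were 0.892% of measured genes under saline and 0.889% under nicotine. The choice of the genes fixes both counts, so nothing is read from them. The average log2 ratio, SHR minus BN, was 3.57 for Acsm3, at least 3.52 for Echdc2, 2.40 for Acox2 and at least 2.27 for Cyp8b1, and the order among them depends on the floor. With the floor at the 20th percentile the Echdc2 value was 5.04 and the Cyp8b1 value 2.69. Each value rests on 1 probe set, so a sequence difference between the strains under the probes and a difference in transcript level cannot be told apart here. The pools likewise leave fewer cells of a type and less RNA per cell unresolved.

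A sign of RNA quality and markers of several cell types also differed with strain, and their part in the differences of the 4 genes was not tested. The ratio of the beta-actin signal at the 3′ end to that at the 5′ end was 1.39 and 1.34 in SHR saline and nicotine and 1.54 and 1.49 in BN saline and nicotine. The same ratio for GAPDH overlapped between strains: both BN pools, at 1.07 and 1.09, lay between SHR saline at 1.0 and SHR nicotine at 1.11. Over all 5444 genes tested with limma, 17.6% differed between strains, 8.28% higher and 9.33% lower in SHR, and the marker counts stand beside that share. Of 16 markers of the proximal tubule, the segment that carries most renal fatty acid oxidation, all were measured, 7 were higher and 3 lower in SHR with limma. Their summed signal was 48973 to 50247 in SHR and 45095 to 45278 in BN. Of 14 hepatocyte markers, 12 stayed below the limit of 89.0 on every array, including albumin (Alb), Apoa1, Apoa2, Ttr, Fgb and Tat. Apoc3 and prothrombin (F2) were the measured members, and F2 was lower in SHR (72.7 and 82.9 against 256.2 and 246.4). The sum over all 14 was 606 to 609 in SHR and 707 to 736 in BN, and without F2 it would not be lower in SHR. Immune cell markers were higher in SHR in 4 of 4 tested, of 8 on the array, with sums of 3550 to 4135 against 2624 to 2887; Ptprc was below the floor throughout. Of the remaining lists, thick ascending limb and distal tubule markers had 1 higher and 2 lower of 6 tested, collecting duct markers 1 and 2 of 6, podocyte markers 0 and 1 of 2, endothelial markers 1 and 0 of 3, and adipocyte markers 0 and 1 of 1.

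The genes of most similar pattern were sought by the distance between floored log2 signals over the 4 arrays, after each gene's own mean was removed. For each of the 4 genes the nearest 3 others of the 5697 were Ly6i, Ogn and RT1-T24-3. The distance to Ly6i was 0.31 for Acox2, 0.30 for Cyp8b1, 1.03 for Echdc2 and 1.13 for Acsm3. Echdc2, Cyp8b1 and RT1-T24-3 (7.6 and 5.8 in BN saline and nicotine) lie below the floor in BN, so their distances, and the order of these neighbours, are set partly by the floor. Ly6i belongs to a family of cell surface proteins, and read 537.2 and 434.7 in SHR saline and nicotine against 85.6 and 81.7 in BN saline and nicotine. With 4 points that separate by strain, the distance reflects mainly the size of the strain ratio.

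Differences with prenatal nicotine were small beside those between strains, but the genes were chosen for high SHR signal, so nothing is read from that. The choice of the genes did not use the contrast of nicotine with saline. In SHR, where they were measured, Acsm3 was 1.21-fold higher in the nicotine pool and Cyp8b1 was 1.43-fold lower, while Echdc2 and Acox2 had log2 ratios of 0.06 and -0.07. None reached 1.5-fold, a size reached upward by 1.08% and downward by 0.786% of 5470 genes measured in SHR. A ratio at least as large as that of Cyp8b1, in either direction, was seen in 2.98% of these genes. For Acsm3 the share was 14.8%, and for Acox2 and Echdc2 it was 66.7% and 70.9%. The SD of the SHR log2 ratio was 0.21 over all measured genes. The shares and the SD cover genes of every brightness, and ratios of dim genes are less stable. How rare such a ratio is among genes as dim as Cyp8b1 was not tested. With 1 pool per group these ratios have no replicate check.

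In BN, Acsm3 had a nicotine log2 ratio of 0.15 and Acox2 one of -0.38, both from signals below the limit of measurement. Echdc2 and Cyp8b1 lay below the floor in both BN pools, so their floored BN ratio is 0 by construction and says nothing about nicotine. An interaction of strain and nicotine has no residual degree of freedom with 4 arrays and was not tested.

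**Figure D2:**
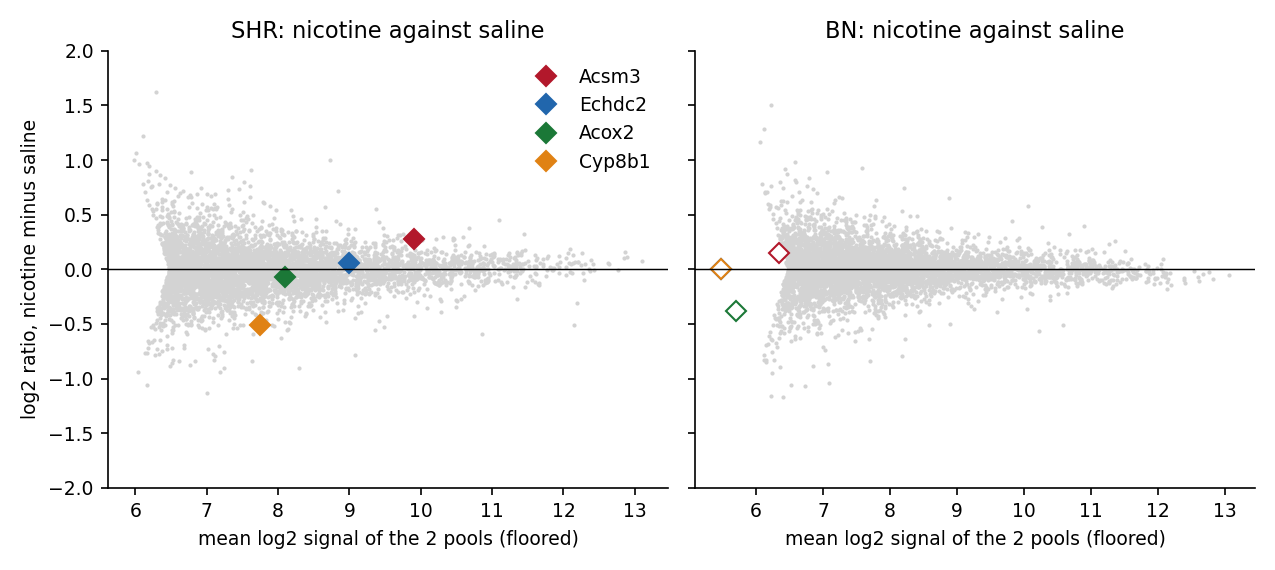
Log2 ratio of nicotine over saline against the mean log2 signal of both pools, in SHR (left) and BN (right); grey points are genes measured in that strain, diamonds the 4 genes, and open diamonds lie below the limit of 89.0 in that strain. In SHR, Cyp8b1 at -0.51 and Acsm3 at 0.28 have the largest ratios of the 4; in BN the Echdc2 diamond is hidden under that of Cyp8b1 at 0.

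Averages over strains were fitted with limma across 5363 genes, which all 4 genes entered only through their SHR signals. The log2 ratio of nicotine over saline was 0.21 for Acsm3 (SE 0.10, adjusted p = 0.911 with limma), the same direction in both strains. It was -0.23 for Acox2 (SE 0.15, limma adjusted p = 0.998), also the same direction in both. Neither passed the test, and the BN part of both rests on signals below the limit. For Cyp8b1 the average was -0.26 and for Echdc2 0.03, but with a BN ratio set to 0 by the floor these are no test of nicotine, and no p is given. Over all genes limma called 0 at an adjusted p under 0.05 (0% of 5363) and 285 at an unadjusted p under 0.05 (5.31%). With the floor at the 20th percentile the Cyp8b1 average turned to 0.03, so no direction is given for it beyond SHR.

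Position on the chromosome was examined because the choice of the genes did not use it. For each gene the 5 nearest genes of the array on either side were taken in RefSeq's GRCr8 order, a rule set after the data had been seen, and 27 of these 40 were bright enough for the strain fit. Of these, 5 were higher and 2 lower in SHR, beside 8.28% and 9.33% of all genes. All of these neighbour calls, like those of all genes, were lost when dim genes were kept in the fit. Around Acsm3 on chromosome 1, 3 of 9 tested neighbours were higher and 1 lower. Thumpd1, which encodes an RNA-binding protein needed for acetylation of transfer RNA, is the next gene of the array and was 2.35-fold higher in SHR (log2 1.23, SE 0.09, limma adjusted p = 2.12e-09). It read 605.6 and 600.9 in SHR saline and nicotine against 241.9 and 272.5 in BN saline and nicotine, with no overlap.

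Acsm5, a paralog of Acsm3 in the same stretch, was at least 2.23-fold higher in SHR (98.0 and 100.3 against 38.8 and 40.6 in BN, limma adjusted p = 0.000477). Acsm2, the paralog that lies between Acsm5 and Thumpd1 in array order, read 3717.5 and 3702.7 in SHR and 3764.8 and 3481.4 in BN, a log2 ratio of 0.04 (SE 0.06, limma adjusted p = 0.752). Umod, the gene of the urinary protein uromodulin, was 1.30-fold higher, a call lost without the intensity trend, and Gp2, its relative, was 1.79-fold lower. On the other side of Acsm3 no neighbour passed the test, with log2 ratios from -0.47 for Lyrm1 to 0.13 for Crym. Whether the Acsm5 probe set also reads Acsm3 RNA was not tested. Acsm1 and Acsm4 were not named on the array.

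The other 3 genes had neighbours with smaller ratios. Around Echdc2 on chromosome 5, 0 of 5 tested neighbours passed the limma test and 0 had an unadjusted p under 0.05, with log2 ratios from -0.17 to 0.24. These included Cpt2, the inner carnitine palmitoyltransferase, at -0.17, and Scp2, the thiolase that ends bile acid side chain shortening, at 0.04. Around Acox2 on chromosome 15, 0 of 7 passed with limma and 1 had an unadjusted p under 0.05, with log2 ratios from -0.33 to 0.35. Over all 5444 genes in the strain fit, 1651 had an unadjusted limma p under 0.05. Around Cyp8b1 on chromosome 8, Ss18l2 (0.43) and Higd1a (0.26) were higher and Zfp445 (-0.46) was lower in SHR, of 6 tested. The calls of Higd1a and Zfp445 were lost under several other settings, among them quantile normalisation, and all 3 were lost without the intensity trend.

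**Figure D3:**
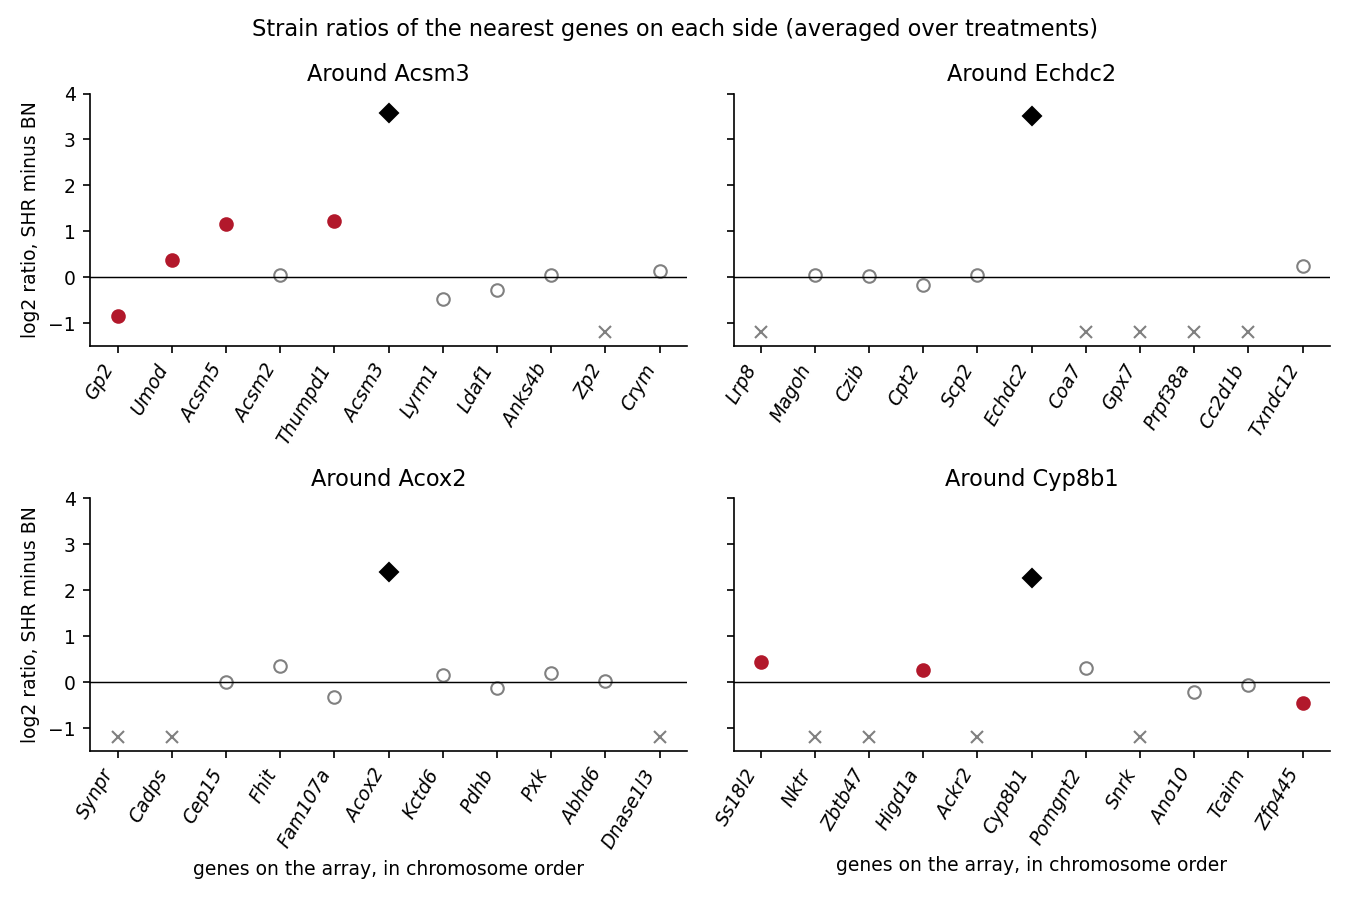
Log2 ratio, SHR minus BN, of the 5 nearest array genes on each side of Acsm3, Echdc2, Acox2 and Cyp8b1 (black diamonds), in chromosome order with no distances; filled circles passed the limma test, open circles did not, and crosses at the bottom mark genes too dim to test. Thumpd1 (1.23) and Acsm5 (1.16) stand out near Acsm3, and no tested neighbour of Echdc2 or Acox2 passed.

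The other genes of the same pathways were divided in direction. Of 72 pathway genes tested, each counted once, 9 were higher and 13 lower in SHR, which is 30.6% against 17.6% of all genes, with a median log2 ratio of -0.04 against 0.001. The lists were drawn up with earlier results of these data known, and whether they hold more called genes than others was not tested. In place of these 22 calls limma gave 12 without its intensity trend, and 0 when dim genes were kept in the fit.

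Among acyl-CoA synthetases, the class of Acsm3, 2 were higher and 3 lower of 13 tested. Besides Acsm5, the higher gene was Acss3, a mitochondrial short-chain synthetase, at 1.24-fold. The lower genes were Acsl1, the main long-chain synthetase (1.41-fold), Acss1, which activates acetate in mitochondria (1.32-fold), and Slc27a2, a very long-chain synthetase and fatty acid carrier (1.22-fold). Acss3 lost its call after quantile normalisation, and Acss3, Acss1 and Slc27a2 lost theirs without the intensity trend, which left 2 of the 5 calls.

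In the list of enoyl-CoA hydratases and mitochondrial beta-oxidation, 2 were higher and 3 lower of 22 tested. Echs1, the main short-chain enoyl-CoA hydratase, was 1.43-fold lower in SHR, at 606.0 and 705.5 in SHR saline and nicotine against 904.4 and 963.4 in BN. Ech1, a dienoyl-CoA isomerase, was 1.31-fold lower. Echdc3, a relative of Echdc2, was 1.20-fold higher (limma adjusted p = 0.0433), as was Acadvl, the very long-chain dehydrogenase (0.0279), and both lost their call under several other settings. Ech1 lost its call without the intensity trend, which left 1 call in this list. Echdc1, which removes side products of fatty acid synthesis, read 245.7 and 257.4 in SHR and 245.1 and 233.2 in BN.

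The enzymes that act next to Acox2 in shortening the bile acid side chain were lower in SHR, opposite to Acox2. Amacr, the racemase that supplies the substrate of Acox2, read 1231.2 and 961.7 in SHR saline and nicotine against 1654.6 and 1578.7 in BN saline and nicotine. It was 1.49-fold lower (SE of the log2 ratio 0.07, limma adjusted p = 8.98e-06). Hsd17b4, the bifunctional enzyme that takes the product of Acox2 further, read 1232.3 and 1188.0 in SHR against 1834.4 and 1822.6 in BN, 1.51-fold lower (SE 0.07, limma adjusted p = 9.88e-07). Scp2, the last enzyme of the cycle, had a log2 ratio of 0.04 (SE 0.07, limma adjusted p = 0.76).

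Over the whole peroxisomal list, 3 were higher and 5 lower of 21 tested. The highest was Pecr, a trans-enoyl-CoA reductase, at 1.90-fold (2663.1 and 2373.8 in SHR against 1313.8 and 1339.7 in BN), followed by the coenzyme A hydrolase Nudt19 at 1.61-fold, a call lost after quantile normalisation. Ehhadh, the other peroxisomal bifunctional enzyme, was 1.40-fold lower. Acox3, a paralog of Acox2, stayed below the limit on all arrays (55.0 to 70.8).

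Bile acid synthesis genes that precede or follow Cyp8b1 were mostly too dim to test. Cyp7a1, the rate-limiting enzyme of bile acid synthesis in liver, read 33.8 to 44.8 over the 4 arrays. Cyp7b1, of the alternative route, read 1.4 to 12.2. Cyp27a1, the mitochondrial sterol hydroxylase, read 76.2 to 99.8 and was not tested. The conjugating enzyme Baat read 28.9 and 30.8 in SHR against 77.8 and 70.6 in BN, below the limit in both. Of 16 listed genes, 13 were on the array and 6 were tested. Of these 6, 0 were higher and 3 lower in SHR (Hsd17b4, Amacr and Slc27a2), beside 8.28% and 9.33% of all genes tested. These are not separate calls: Hsd17b4 and Amacr are also counted in the peroxisomal list, and Slc27a2 among the acyl-CoA synthetases.

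Transporters and sensors of bile acids showed no strain call with limma, 0 of 6 tested, beside 17.6% of all genes. The list holds 20 genes, of which 14 were on the array, so most were not tested. Of the 6 tested, 0 had an unadjusted limma p under 0.05, beside 1651 of all 5444 genes. With the floor at the 20th percentile 1 gene of the list was called. Slc10a2, the sodium-coupled bile acid carrier, read 20.8 and 24.0 in SHR saline and nicotine against 56.3 and 63.9 in BN, below the limit in both. The bile acid receptor Nr1h4 read 267.8 and 250 in SHR and 281.1 and 272.5 in BN. Hnf4a, a transcription factor of proximal tubule and liver known to act on Cyp8b1 in liver, read 476.6 and 409.0 in SHR and 437.0 and 442.5 in BN, a log2 ratio of 0.01 (SE 0.09). In the list of the receptor PPAR-alpha and genes taken as its targets, 2 were higher and 3 lower of 12 tested. Whether each of them responds to that receptor in rat kidney was not tested. The fatty acid hydroxylase Cyp4a8 was 2.29-fold higher, the lipase inhibitor Angptl4 1.39-fold higher, Vnn1, a pantetheinase, 1.63-fold lower and Cyp4a1 1.24-fold lower. Cyp4a genes are related in sequence, and whether their probe sets read each other was not tested. Ppara itself read 3.0 to 5.4.

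**Figure D4:**
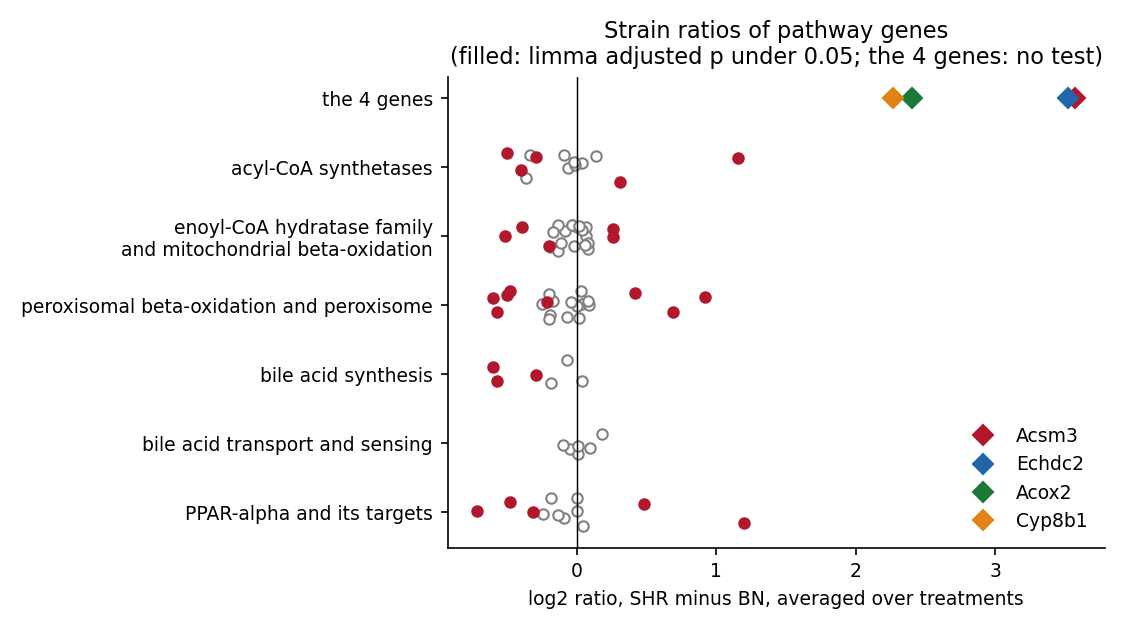
Log2 ratio, SHR minus BN, averaged over treatments, for the tested genes of 6 pathway lists (circles, filled where limma's adjusted p was under 0.05) and for the 4 genes (diamonds, described without a test). The pathway genes lie between -0.71 (Vnn1) and 1.20 (Cyp4a8), below Cyp8b1 at 2.27.

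For nicotine, 0 of the 71 genes of these lists that were tested passed limma's test over all genes, and 3 had an unadjusted p under 0.05. Over all 5363 genes tested these counts were 0 and 285 (5.31%). The averages of largest size were -0.27 for the organic anion carrier Slco1a4 (0.18 in SHR and -0.71 in BN), 0.23 for Ehhadh, -0.21 for Amacr and for the long-chain synthetase Acsl3, and 0.21 for Angptl4. The bile acid thioesterase Acot8 stood at 0.17 and Echs1 at 0.16. In SHR, Ehhadh read 798.8 in the nicotine pool against 643.3 in the saline pool and Amacr 961.7 against 1231.2. List medians lay between -0.06 and 0.04, against 0.002 over all genes.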

How the data were processed

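Kidney RNA pools were hybridised to 1 array each. The deposited values are MAS5 signal intensity per probe set on a linear scale, per the submitters' processing notes, which name no version. Every array had a 2% trimmed mean of 150.0, so the authors had scaled them and no further normalisation was applied. The 57 control probe sets were left out. Of the others, 12783 had 1 gene symbol, 312 several and 2771 none; symbols were updated through the gene identifier to RefSeq. A gene was represented by its probe set of highest mean signal. The share of probe sets at or above the floor was 58.9% to 60.7%. Precision is limited by having 4 arrays.

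Strain and nicotine averages were fitted with limma 3.58.1 in R 4.3.3 (additive model, intensity trend, Benjamini-Hochberg at 0.05, 1 residual degree of freedom). A gene was tested where at least 1 of its 2 group means reached 89.0. No group has a second pool, so the 1 residual degree of freedom is the departure from the additive model, where interaction and noise are mixed. To this limma added variance borrowed from other genes, with a prior weight of 19.33 in the strain fit and 13.35 in the nicotine fit, counted as degrees of freedom. These p-values thus rest mostly on the borrowed variance, and not on replicate pools or on the spread between animals. The strain fit was checked on simulated data of 5192 genes. It recovered 32 of 67 genes changed 1.5-fold, 64 of 67 changed 2-fold and 64 of 66 changed 3-fold, with 7 false calls. A gene without a call may thus still differ by about 1.5-fold. Named pathway genes are, per list, up to 4 of largest strain ratio among those called and up to 2 of largest nicotine ratio, plus paralogs; other genes named were chosen after their values were seen. The members and lists were chosen with earlier results of these data known. Alternatives changed the floor, the normalisation, the trend, the filter, the probe set rule and the arrays used.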

Additional observations from a re-analysis of the deposited data

How the results depend on the processing

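The strain ratios of the 4 genes kept their direction under every setting tried. The choice of the genes for high SHR signal made that likely, so nothing is read from it. The size of these ratios follows the floor. With the floor at the 20th percentile the average log2 ratio was 5.04 for Echdc2 and 2.69 for Cyp8b1. A floor at the 60th percentile gave 3.32 for Acsm3, 2.41 for Echdc2, 1.51 for Acox2 and 1.15 for Cyp8b1. Leaving out each array in turn gave 3.43 to 3.71 for Acsm3. The Cyp8b1 nicotine average reversed to 0.03 with the floor at the 20th percentile. Nicotine calls over all genes numbered 6 and 27 with the floor at the 20th and 60th percentile and 0 as reported. The 959 strain calls became 498 after quantile normalisation, 440 when the trend was left out and 0 when low genes were kept. With strain as the only factor there were 770 calls on all 4 arrays, 518 without SHR nicotine, 534 without SHR saline, 314 without BN nicotine and 300 without BN saline. The 22 pathway calls became 12 without the trend and 0 with no filter. The cause of these changes was not tested. Of 23 named pathway and neighbour genes, 0 reversed under the 7 settings of floor, normalisation, trend, filter and probe set rule; 19 of them were tested with the floor at the 60th percentile, and none was followed with an array left out. Of the 23, 17 kept their call after quantile normalisation, 13 without the trend and 0 with no filter. No paired analysis was possible because each group has 1 array.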
